A study of Mus musculus with 18 samples.

Results

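The FOS and JUN family (AP-1) was followed here through 9 genes, Fos, Fosb, Fosl1, Fosl2, Jun, Junb, Jund, Atf3 and Ier2, out of 24091 gene symbols in the epididymal table and 51826 gene identifiers in the inguinal table. The genes were taken by name and all 9 were found in both tables. RNA was sequenced from white fat of C57BL/6 mice, 18 libraries in 6 groups of 3. Epididymal fat (eWAT, a visceral depot) gave shiftwork ZT12, control ZT12, shiftwork ZT3 and control ZT3 libraries, and inguinal fat (iWAT, a subcutaneous depot) gave shiftwork ZT3 and control ZT3 libraries. Shiftwork mice lived for 24 weeks with 4 days of the regular light cycle and 3 days of the reversed cycle in every week. Control mice stayed on 12 h of light and 12 h of dark. ZT counts hours from lights-on of the regular cycle. The labels name no transgene, and they do not give the age of the mice or say which libraries came from separate animals, so p-values measure only the spread between these libraries.

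AP-1 is a dimer of basic leucine zipper proteins that binds a short DNA element and turns brief signals into changes in transcription. A JUN protein (Jun, Junb or Jund) pairs with another JUN protein or with a FOS protein (Fos, Fosb, Fosl1 or Fosl2), while FOS proteins do not form stable dimers with each other. Most of these genes are immediate early genes: kinase signals such as serum, stress or handling of a tissue raise their RNA for a short time without new protein synthesis. In fat, AP-1 proteins are known from adipocyte differentiation, from the response to catecholamines and from inflammation.

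Jun and most of the other members did not share a pattern in epididymal fat. In edgeR's test Jun was the only one of the 9 called higher in control fat at ZT12 against ZT3. Atf3 had a larger log2 fold change there (1.40 against 0.84 for Jun) but was not called (adjusted p = 0.107, edgeR). Ier2 was called lower in the same comparison. The control ZT3 libraries held the lowest Jun of the depot together with some of the highest Fos, Fosb, Fosl1, Fosl2, Junb and Ier2. In inguinal fat Fosl2 stood near 3685 normalized reads in shiftwork libraries and 1765 in controls, with replicates close together in both groups.

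The stretches of DNA just upstream of Jun and of 3 members that did not follow it are shown because Jun was set apart from them by its levels. Of the 9 members, 7 had a promoter in the RefSeq table (build GRCm38.p6), and each line gives the 120 bases before the start of transcription, 5′ to 3′ on the strand of the gene. Capitals mark the matches found: TGACATCA (the AP-1-like element known from the Jun promoter), TGACG (the first part of a cyclic AMP response element), the CCAAT box and TATAA.
Jun: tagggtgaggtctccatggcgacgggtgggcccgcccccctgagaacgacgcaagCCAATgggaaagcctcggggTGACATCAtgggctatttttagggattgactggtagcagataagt
Fos: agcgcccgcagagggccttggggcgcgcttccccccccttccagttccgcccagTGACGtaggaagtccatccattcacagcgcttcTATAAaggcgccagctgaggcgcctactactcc
Junb: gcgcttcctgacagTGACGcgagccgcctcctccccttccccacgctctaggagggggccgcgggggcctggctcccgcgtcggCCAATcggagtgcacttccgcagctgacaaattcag
Fosb: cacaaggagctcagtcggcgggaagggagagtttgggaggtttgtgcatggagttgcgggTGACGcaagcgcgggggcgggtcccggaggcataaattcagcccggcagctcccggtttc

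The 4 stretches lie at chr4:95052223-95052342 (minus strand) for Jun, chr12:85473770-85473889 (plus strand) for Fos, chr8:84978749-84978868 (minus strand) for Junb and chr7:19310046-19310165 (minus strand) for Fosb. Motifs were searched on both strands of the 250 bases upstream of each start. TGACATCA began 45 bases upstream of Jun and was in no other of the 7 members, against 2.93 percent of 32851 windows. TGACG was in Fos (66 and 129 bases upstream), Fosb (60), Junb (106) and Atf3, and in 17.8 percent of all windows. CCAAT was in Jun and Junb and in 33.8 percent of all windows, and TATAA was in Fos and in 22.8 percent. The AP-1 site TGACTCA (4.46 percent), the full cyclic AMP response element TGACGTCA (1.55 percent), which contains TGACG, and the serum response element (1.47 percent) were in none of the 7 windows. Bases farther upstream than 250 were not searched, so a motif missing from a window can still lie beyond it. These matches describe letters and not binding.

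The genes lie on 7 chromosomes of mm10 (GRCm38), and Jun, Junb, Jund and Ier2 each consist of a single exon. Jun spans chromosome 4 from 95049036 to 95052222, and Fos spans chromosome 12 from 85473901 to 85477270 in 4 exons. Fosl2 spans chromosome 5 from 32136472 to 32157839 in 4 exons, and Ier2 spans chromosome 8 from 84661331 to 84662852. The strand used in counting is not given in the sources used here, so reads from exons that overlap a gene on the opposite strand cannot be assigned. Fosl1 shares 1163 exonic bases with Ccdc85b, and Jund shares 877 with an antisense transcript, Gm11175. Jun shares 232 bases with its antisense transcript Junos, and Junb shares 173 bases with Prdx2. Ccdc85b had 12.4 to 31.6 CPM (reads scaled to library size) over the eWAT libraries, above Fosl1 in every one of them, and its correlation with Fosl1 there was -0.40 (12 libraries).

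Assigned reads numbered 20352008 to 72276733 per library in eWAT and 28544338 to 55639501 in iWAT. The highest eWAT total was that of control ZT3 replicate 1, and the next highest was 22513786. In iWAT the highest was control replicate 1, and the next highest was 30811859. The CPM value of 3 reads lay between 0.0415 and 0.147 in eWAT libraries and between 0.0539 and 0.105 in iWAT libraries, for counting error only. All 8 adipocyte markers, among them Adipoq and Cidec, were above 1 CPM in every library. Several libraries stood apart by markers of other tissues. Summed vas deferens and epididymis markers (8 listed, 7 found) reached 11350 and 11970 CPM in eWAT control ZT3 replicates 1 and 3. The sum was 11.9 CPM in replicate 2 and at most 47.6 CPM in all other libraries. In replicates 1 and 3 it was almost all Akr1b7 (9023 and 9311 CPM) and Crisp1 (2329 and 2660 CPM). Each other gene found was at most 1.80 CPM there. The 47.6 CPM, in shiftwork ZT3 replicate 3, was mostly Cst8 (44.35 CPM). Smooth muscle markers were also high in control ZT3 replicates 1 and 3. Spermatid markers summed to 4788 CPM in eWAT shiftwork ZT3 replicate 3. Intestine markers (6 genes, all above 1 CPM) summed to 633 CPM in eWAT shiftwork ZT12 replicate 2, against 7.36 to 33.7 CPM in the other eWAT libraries. That library also held the highest Fos, Fosb, Fosl1, Jun, Junb, Jund and Ier2 of its group, and the part of these transcripts was not tested. Skeletal muscle markers summed to 43150 CPM in iWAT shiftwork replicate 1, and B cell markers to 1313 and 1968 CPM in iWAT control replicates 1 and 2. In bulk tissue, fewer cells of a type and less RNA per cell cannot be told apart. The library codes of the iWAT controls carry the numbers 14, 15 and 16, as do those of the eWAT control ZT12 libraries, and 45 stands on an iWAT shiftwork and an eWAT shiftwork ZT12 library. Whether these are the same mice is not stated, and the labels give ZT3 for iWAT.

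Per length of transcript, the JUN proteins' genes were the more abundant ones. In eWAT, median levels over the 12 libraries in FPKM (a level per length of transcript and library size) ran from 21.5 for Jund and 13.98 for Jun through 9.96 for Junb, 9.72 for Fosl2, 6.56 for Ier2, 4.23 for Fos and 3.70 for Atf3 to 0.558 for Fosb and 0.535 for Fosl1. Jund and Jun overlapped in range (17.8 to 28.7 FPKM and 8.41 to 18.9 FPKM), although Jund was above Jun within each of the 12 libraries. Each later pair of neighbours in that order also overlapped in range, down to Atf3 (lowest 1.51 FPKM) and Fosb (highest 3.41 FPKM). In iWAT, median RPKM (also per length and library size, from a table normalized separately) was 133 for Jund, 34.2 for Jun, 26.7 for Junb, 16.7 for Ier2, 8.63 for Fosl2, 6.52 for Atf3, 6.31 for Fos, 0.540 for Fosb and 0.288 for Fosl1. Jund had no overlap with Jun there (lowest Jund 113 RPKM, highest Jun 38.4 RPKM), Ier2 had none with Fosl2 (12.3 and 11.3 RPKM), and Fos had none with Fosb (3.91 and 1.46 RPKM). The other neighbours overlapped.

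The balance of FOS to JUN transcripts was widest among the control ZT3 libraries of eWAT. The summed FPKM of the 4 FOS genes, as a percentage of the summed FPKM of the 3 JUN genes, was 34.1, 40.0 and 40.7 in shiftwork ZT12, against 32.3, 41.5 and 24.9 in control ZT12. It was 22.2, 23.5 and 23.1 in shiftwork ZT3, against 22.2, 88.4 and 58.9 in control ZT3. Control ZT3 replicates 2 and 3 were above every other eWAT library, and replicate 1 was close to the shiftwork ZT3 libraries. Fosl2 supplied the largest part of the FOS sum in each of the 12 libraries, from 47.3 to 80.0 percent. In iWAT the FOS sum was 12.7, 10.9 and 14.5 percent of the JUN sum in shiftwork, against 6.96, 4.42 and 5.76 percent in control, with no overlap, and the JUN sum there was mostly Jund (64.9 to 74.1 percent).

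**Figure D1:**
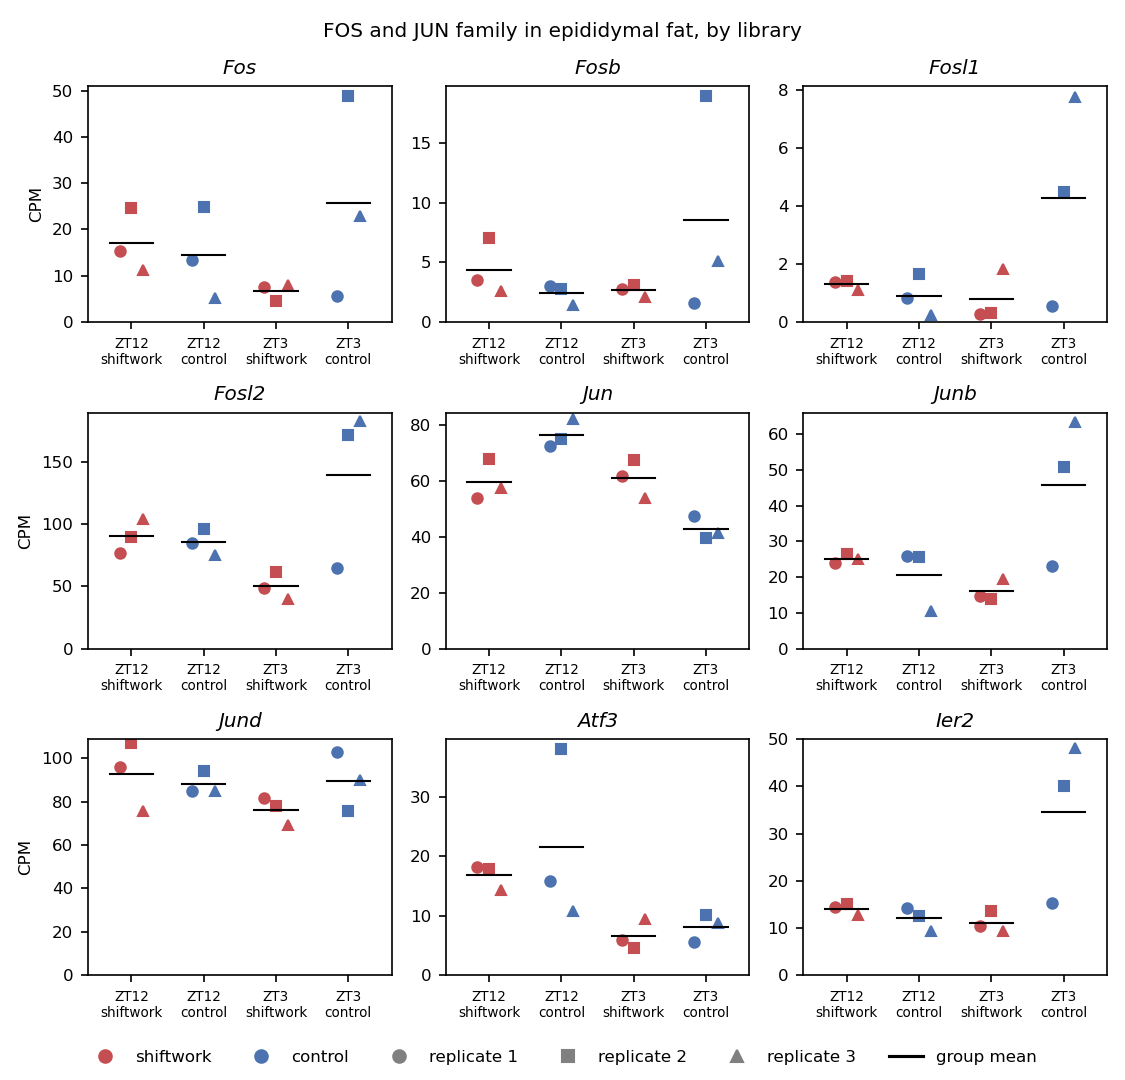
Level of each member in the 12 epididymal fat libraries, in CPM, by group (colour) and replicate (marker shape), with the group mean as a line. Jun was lowest in the control ZT3 group (39.5 to 47.2 CPM), where Fosl2, Junb and Ier2 were highest in replicates 2 and 3.

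Jun encodes c-Jun, the founding JUN protein and the one most tied to stress kinases. Its eWAT levels were 53.7, 67.9 and 57.3 CPM in shiftwork ZT12, against 72.4, 74.8 and 82.2 CPM in control ZT12. They were 61.8, 67.2 and 53.9 CPM in shiftwork ZT3, against 47.2, 39.5 and 41.4 CPM in control ZT3. The 3 control ZT3 libraries were the lowest of all 12, the 3 control ZT12 libraries were the highest, and both shiftwork groups lay between them. In control fat Jun rose at ZT12, averaging 76.5 ± 5.12 CPM at ZT12 and 42.7 ± 4.02 CPM at ZT3 (SD, n = 3 each), with a log2 fold change of 0.84 ± 0.12 (SE) and an adjusted p of 0.0168 (edgeR quasi-likelihood test, Benjamini-Hochberg over 15141 genes). In shiftwork fat the same log2 fold change was -0.04 ± 0.12 (adjusted p = 0.898).

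The difference between these time effects did not pass the test. It was -0.88 ± 0.17 on the log2 scale for Jun, with an adjusted p of 0.372 (edgeR; the unadjusted p was 0.000435), and no gene of 15141 passed there (background 0 percent; 1535 had an unadjusted p under 0.05). DESeq2, the other tool run on these counts, gave an adjusted p of 0.000855 for Jun and called 189 genes in this comparison. At ZT3 the log2 fold change of Jun in shiftwork against control was 0.52 ± 0.12 (adjusted p = 0.194), and at ZT12 it was -0.36 ± 0.12 (adjusted p = 1). The replicates did not overlap in either comparison. The background for such separation was 7.23 percent of genes higher and 4.43 percent lower in shiftwork at ZT3, and 5.82 percent higher and 6.66 percent lower at ZT12.

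The call for Jun in control fat did not survive every omission of a single library. It was lost without control ZT12 replicate 1 (adjusted p = 0.0928), control ZT12 replicate 2 (0.0676) or control ZT3 replicate 3 (0.0917), while its log2 fold change stayed between 0.76 and 0.92 over the 12 omissions. Over all genes, the number called fell from 559 to 1, 4 and 3 in those omissions, in that order. Control ZT3 replicates 1 and 3 and shiftwork ZT3 replicate 3 were the libraries with male tract or spermatid markers. Without them the log2 fold change of Jun was 0.91, and 1 control ZT3 library then remained, assumed to vary like the others.

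**Figure D2:**
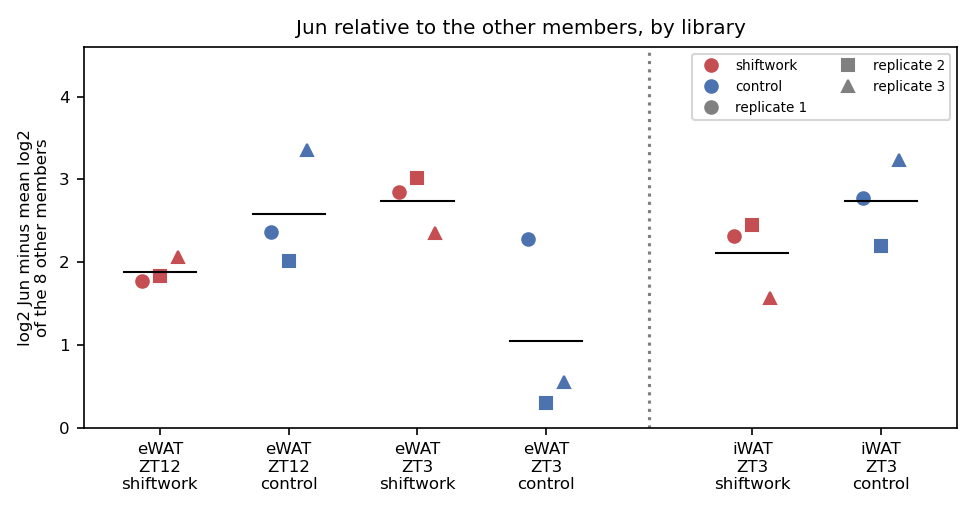
Log2 level of Jun minus the mean log2 level of the 8 other members, per library, with group means as lines. The dotted line parts the eWAT libraries (CPM) from the iWAT libraries (normalized separately). The lowest values are control ZT3 replicates 2 and 3 of eWAT, at 0.30 and 0.55.

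Jun was also set against the other 8 members within each library. The log2 level of Jun minus the mean log2 level of the others averaged 1.89 in shiftwork ZT12 and 2.58 in control ZT12 of eWAT, with ranges that overlapped. It averaged 2.74 in shiftwork ZT3, from 2.35 to 3.02, and 1.04 in control ZT3, from 0.30 to 2.28, with no overlap. In iWAT it averaged 2.11 in shiftwork and 2.74 in control, and the ranges overlapped (1.56 to 2.45 in shiftwork and 2.20 to 3.23 in control). Jun was below Junb in CPM only in eWAT control ZT3 replicates 2 and 3 among the 12 eWAT libraries.

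Over the 12 eWAT libraries, log2 levels of Fos, Fosb, Fosl1, Fosl2, Junb and Ier2 correlated with each other at Pearson r of 0.65 to 0.93 (15 pairs). Jun correlated negatively with 6 of the other 8 members. The lowest values were -0.76 with Ier2, -0.74 with Junb and -0.67 with Fosl1, and the exceptions were 0.33 with Atf3 and 0.09 with Jund. With group means removed, r was -0.34 for Jun with Ier2, -0.60 with Junb, -0.54 with Atf3 and 0.60 with Jund, and for Atf3 it was 0.81 with Fos, 0.83 with Fosl1 and 0.74 with Junb. These values are descriptions of 12 libraries that share groups, tissue admixture and normalization.

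**Figure D3:**
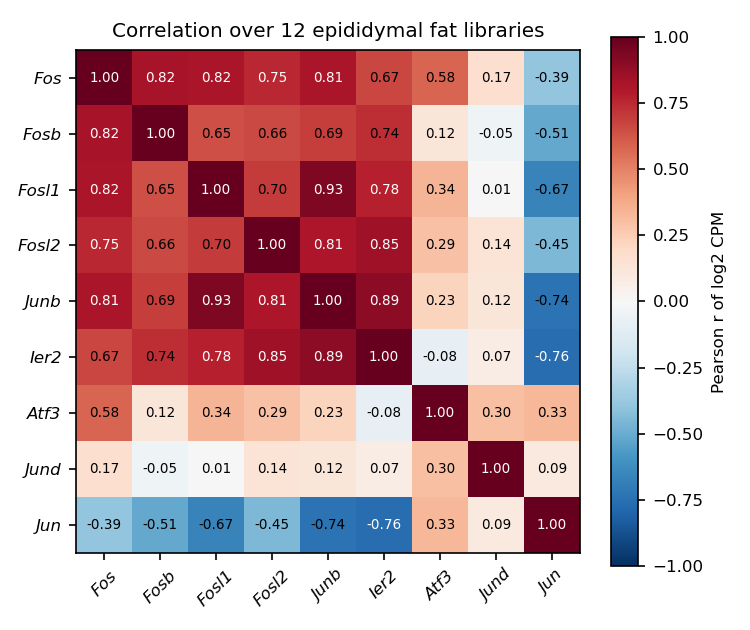
Pearson correlation of log2 CPM between members over the 12 epididymal fat libraries. Fos, Fosb, Fosl1, Fosl2, Junb and Ier2 form a block of positive values (0.65 to 0.93), and Jun is negative against 6 of the other 8.

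Among 10386 genes compared, those most like Jun over the 12 libraries were Rapgef3 (Pearson r 0.96), Mycbp2 (0.94), Fam20c (0.93), Adarb1 (0.93) and Clip1 (0.93). Rapgef3, which encodes a guanine nucleotide exchange factor activated by cyclic AMP, averaged 47.4 CPM in shiftwork ZT12 and 62.6 CPM in control ZT12, and 47.7 CPM in shiftwork ZT3 and 32.3 CPM in control ZT3. Those most like Fos were Socs3 (0.93), an inhibitor of cytokine signalling, Camkk2 (0.89), Mfsd12 (0.88), the chemokine gene Ccl2 (0.88) and Bmp2k (0.86).

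Fos encodes c-Fos, the textbook immediate early protein. Its eWAT levels were 7.502, 4.47 and 7.97 CPM in shiftwork ZT3, against 5.70, 48.8 and 22.9 CPM in control ZT3. The control libraries spanned almost the whole range of the depot, and replicate 1 lay inside the shiftwork range. At ZT12 Fos was at 15.3, 24.7 and 11.2 CPM in shiftwork, against 13.3, 24.9 and 5.26 CPM in control. The log2 fold change of shiftwork against control was -1.94 ± 0.74 at ZT3 (adjusted p = 0.22) and 0.24 ± 0.72 at ZT12 (adjusted p = 1, both edgeR). All 3 shiftwork ZT12 libraries were above all 3 shiftwork ZT3 libraries, with a log2 fold change of 1.35 ± 0.73 (adjusted p = 0.381).

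Fosb, a relative of Fos known for a long-lived splice form in brain, was at 2.75, 3.11 and 2.09 CPM in shiftwork ZT3, against 1.59, 18.9 and 5.07 CPM in control ZT3. Fosl1, which encodes Fra-1, had 0.285, 0.291 and 1.83 CPM in shiftwork ZT3 (6, 6 and 43 reads), against 0.549, 4.48 and 7.75 CPM in control ZT3 (44, 92 and 159 reads). As with Fos, replicate 1 of the control group was the low one for both genes, and the groups overlapped. Neither passed the test in any eWAT comparison, with log2 fold changes at ZT3 of -1.67 ± 0.76 for Fosb and -2.36 ± 1.04 for Fosl1 (adjusted p = 0.271 and 0.26, edgeR).

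Fosl2 encodes Fra-2, the FOS protein with the highest median transcript level per length in both depots. Its eWAT levels were 48.8, 61.0 and 39.5 CPM in shiftwork ZT3, against 65.0, 171 and 182 CPM in control ZT3. Every control library was above every shiftwork library, although control replicate 1 was nearer to the shiftwork libraries than to the other 2 controls. At ZT12 the values were 76.7, 89.9 and 104 CPM in shiftwork and 85.0, 95.9 and 75.01 CPM in control, and they overlapped. The log2 fold change of shiftwork against control was -1.48 ± 0.34 at ZT3 (adjusted p = 0.193, edgeR), and leaving out control ZT3 replicate 1 made it -1.82 with an adjusted p of 0.0389. Within shiftwork, all ZT12 libraries were above all ZT3 libraries, with a log2 fold change of 0.85 ± 0.33 (adjusted p = 0.281).

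Junb, a JUN protein with weaker activation than c-Jun, had 14.8, 13.8 and 19.6 CPM in shiftwork ZT3, against 23.2, 50.9 and 63.4 CPM in control ZT3. At ZT12 it had 24.0, 26.4 and 25.2 CPM in shiftwork, against 26.0, 25.7 and 10.5 CPM in control. The ZT3 groups did not overlap, as for 4.43 percent of genes lower in shiftwork, and the log2 fold change was -1.50 ± 0.40 (adjusted p = 0.198, edgeR). Ier2, an immediate early gene outside the leucine zipper family, had 10.5, 13.6 and 9.33 CPM in shiftwork ZT3, against 15.3, 40.2 and 48.1 CPM in control ZT3, again without overlap (log2 fold change -1.62 ± 0.36, adjusted p = 0.189).

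Ier2 was the second member that passed a test. In control fat it fell at ZT12, with 14.2, 12.6 and 9.35 CPM at ZT12 against 15.3, 40.2 and 48.1 CPM at ZT3. Replicate 1 of the ZT3 group lay just above the ZT12 libraries, and the groups did not overlap. The log2 fold change was -1.51 ± 0.36 with an adjusted p of 0.0498 (edgeR), next to the threshold. The adjusted p was above 0.05 in 10 of 12 omissions of a library, at 0.0579 to 0.192 (the exceptions were control ZT3 replicate 1 and shiftwork ZT3 replicate 3), while the log2 fold change stayed between -1.87 and -1.23.

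The 2 members called in this comparison, Jun and Ier2, stand against a background of 3.69 percent of 15141 genes (2.93 percent higher and 0.766 percent lower). No member was called in shiftwork against control at ZT3 or ZT12, or in shiftwork ZT12 against ZT3, where edgeR called no gene at all (background 0 percent in each). At an unadjusted p under 0.05 the members numbered 6 of 9 at ZT3, 1 at ZT12 and 2 in shiftwork over time, beside 2847, 355 and 2461 of 15141 genes. DESeq2 called 4 members at ZT3, with Fosl2, Junb and Ier2 lower and Jun higher, among 629 genes. It called no member at ZT12 (7 genes) or in shiftwork over time (287 genes), and 4 in control over time, with Jun and Atf3 higher and Junb and Ier2 lower (2168 genes).

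Log2 fold changes at ZT3 were below 0 for 8 of 9 members, with a median of -1.50, beside 0.06 and 43.1 percent below 0 for all genes tested. The medians of the members were 0.23 for shiftwork against control at ZT12, -0.83 for ZT12 against ZT3 in control and 0.65 for ZT12 against ZT3 in shiftwork, each beside a median within 0.03 of 0 for all genes. These comparisons share libraries, the control ZT3 group in particular.

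**Figure D4:**
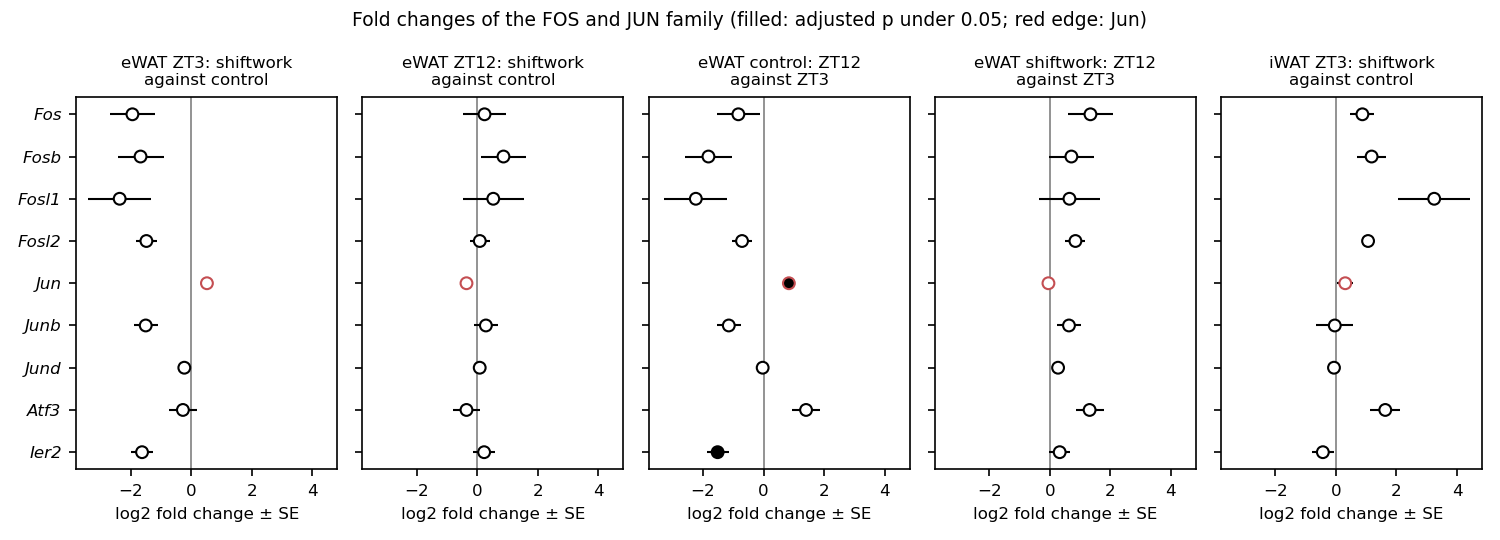
Log2 fold change with its SE for each member in the 5 comparisons, with filled points for an adjusted p under 0.05 and a red edge for Jun. The 2 filled points are Jun (0.84) and Ier2 (-1.51) in control fat at ZT12 against ZT3.

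The high Fos, Fosb, Fosl2, Junb and Ier2 of control ZT3 came from replicates 2 and 3, and the male tract markers were high in replicates 1 and 3. The part of male tract tissue in these levels was not tested. Replicate 2, with the highest Fos and Fosb of the 12 libraries, held 11.9 CPM of vas deferens and epididymis markers and 460 CPM of smooth muscle markers. Among the 9 ZT12 and shiftwork libraries of eWAT, the vas deferens and epididymis sum was 47.6 CPM in shiftwork ZT3 replicate 3 and at most 4.95 CPM in the other 8, and the smooth muscle sum was 368 to 1066 CPM. Replicate 2 also had 34.9 CPM of spermatid markers, with all 8 above 1 CPM. Replicate 1, with 11350 CPM of vas deferens and epididymis markers and 10970 CPM of smooth muscle markers, held the lowest Fos, Fosb, Fosl1, Fosl2, Junb and Ier2 of its group. Leaving out control replicates 1 and 3 and shiftwork replicate 3 kept 1 control ZT3 library, replicate 2, which was high in Fosl2 and Ier2. The ZT3 log2 fold change was then -1.65 for Fosl2, -1.75 for Ier2 and 0.69 for Jun. How that group varies cannot be read from 1 library. Summed B cell markers at ZT3 were also apart, at 15.3, 13.8 and 48.3 CPM in shiftwork and 71.99, 83.4 and 268 CPM in control, and their part in the results was not tested. Mast cell markers (6 genes) summed to 51.5, 35.3 and 68.5 CPM in shiftwork ZT3 and 80.5, 55.9 and 77.6 CPM in control ZT3, which overlapped. Of the 6 genes, 5 had log2 fold changes below 0 (median -1.38), and all 6 had an unadjusted p under 0.05 there and in the difference of time effects, with none called by edgeR. In control fat their sum was 41.9, 50.6 and 40.7 CPM at ZT12, below each ZT3 library, and 5 of 6 were below 0 (median -1.47). The part of these cells was not tested either.

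Atf3, a stress-induced repressor and partner of JUN proteins, had 18.2, 17.9 and 14.3 CPM at ZT12 against 5.89, 4.57 and 9.50 CPM at ZT3 in shiftwork fat. In control fat it had 15.9, 37.99 and 10.7 CPM at ZT12 against 5.55, 10.03 and 8.82 CPM at ZT3. All 6 ZT12 libraries were above all 6 ZT3 libraries. The log2 fold changes were 1.32 ± 0.46 in shiftwork and 1.40 ± 0.46 in control (adjusted p = 0.28 and 0.107, edgeR), and the difference between them was -0.09 ± 0.64. In control fat, separation of replicates was seen for 19.4 percent of genes higher and 13.6 percent lower at ZT12, and in shiftwork fat for 9.37 percent higher.

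Macrophage markers also separated by time of day. Their sum (10 genes, all above 1 CPM in every library) was 1689 to 3495 CPM at ZT12 against 825 to 1372 CPM at ZT3 in shiftwork, and 1470 to 2661 CPM at ZT12 against 853 to 1069 CPM at ZT3 in control. All 10 had log2 fold changes above 0 in both comparisons and 2 were called in control. The part of these cells in Atf3 and Jun was not tested. Jund, the JUN protein expressed most steadily in resting tissue, stayed between 69.1 and 107 CPM over the 12 libraries, with log2 fold changes from -0.22 to 0.28 and SEs of 0.15 in the 4 comparisons.

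Genes around AP-1 were read from lists of the pathway. Of 25 other immediate early genes, 3 passed the test in control fat at ZT12 against ZT3, beside 3.69 percent of all genes tested. The anti-apoptotic gene Mcl1 and the transcription factor Klf2 rose (log2 fold changes 0.69 ± 0.14 and 0.79 ± 0.18), as Jun did. In shiftwork fat their log2 fold changes over time were 0.40 and 0.65, neither called, against -0.04 for Jun. Egr1, a zinc finger immediate early factor, fell by 3.56 on the log2 scale (adjusted p = 0.0359, edgeR). Its levels were 33.5, 24.6 and 18.1 CPM at ZT12 against 33.8, 454 and 408 CPM at ZT3, so the same replicate of control ZT3 was low as for Fos. At ZT3 in shiftwork against control, 22 of the 25 were below 0 with a median of -0.65, beside 43.1 percent of all genes tested, and none was called. The smallest p values there belonged to Egr2, at 4.99, 2.28 and 6.43 CPM in shiftwork against 15.8, 46.9 and 60.6 CPM in control, and to Egr1, at 37.3, 33.1 and 24.5 CPM in shiftwork against 33.8, 454 and 408 CPM in control.

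Of 12 other leucine zipper partners none was called in any comparison. Atf4, the effector of the integrated stress response, had 78.1, 103 and 66.4 CPM in shiftwork ZT3 against 132, 130 and 156 CPM in control ZT3 (log2 fold change -0.75 ± 0.14, adjusted p = 0.171, edgeR). Of 20 kinases and receptors upstream, Mapk8, which encodes the JNK1 kinase that phosphorylates c-Jun, fell in control fat at ZT12 by 0.43 ± 0.10 on the log2 scale (adjusted p = 0.0498). It had 27.8, 28.3 and 26.0 CPM at ZT12 against 32.6, 37.2 and 40.8 CPM at ZT3, opposite in direction to Jun. Of 10 transcription factors upstream of Fos, Srf (serum response factor) fell in control fat at ZT12 by 0.79 ± 0.13 (adjusted p = 0.0195), with 40.8, 38.8 and 40.4 CPM at ZT12 against 62.5, 65.6 and 79.1 CPM at ZT3. Srf was also at 34.8, 46.7 and 44.5 CPM in shiftwork ZT3, without overlap with control ZT3 (log2 fold change -0.71 ± 0.13, adjusted p = 0.171).

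Of 14 feedback and turnover genes, Dusp5, a phosphatase that inactivates ERK, fell in control fat at ZT12 by 4.22 ± 0.80 (adjusted p = 0.0266, edgeR). It had 0.902, 1.99 and 0.884 CPM at ZT12 against 21.5, 6.33 and 42.6 CPM at ZT3, high in the 2 replicates with male tract markers and thus in another order than Fos. Of 18 tested genes known as AP-1 targets, Mmp9, a gelatinase, fell by 1.95 ± 0.44 (adjusted p = 0.0428), with the same replicates high (8.40, 4.35 and 4.88 CPM at ZT12 against 32.9, 9.64 and 25.4 CPM at ZT3). Ccl2 was at 7.03, 8.55 and 6.73 CPM in shiftwork ZT3 against 7.43, 55.8 and 61.0 CPM in control ZT3, high in replicates 2 and 3 like Fosl2 (log2 fold change -2.46 ± 0.71, adjusted p = 0.208). In the other comparisons no gene of these lists was called.

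Where a list had no called gene, genes with the smallest p are given by their log2 fold changes. At ZT3 in shiftwork against control they included Dusp5 (log2 fold change -3.94), the ERK pathway inhibitor Spry4 (-2.10), Mmp9 (-1.75), the small MAF protein gene Mafg (-0.48), Map2k4 (-0.40) and Mapk3 (0.32), which encode kinases, and Mef2a (-0.31). At ZT12 in shiftwork against control they were Timp1, a protease inhibitor (1.35), Maff (-0.75), the phosphatase gene Dusp1 (-0.59), Spry1 (-0.47), Plau (-0.36), Mafk (-0.33), Mkl2 (-0.19), Itch (-0.19), Mef2d (-0.18), Map2k2 (0.15), Atf2 (-0.145) and Map2k3 (-0.13). In control fat at ZT12 against ZT3 the log2 fold change of Jdp2 was 0.72. In shiftwork fat at ZT12 against ZT3 the log2 fold changes were 0.82 for Hmox1, which encodes a haem-degrading enzyme, 0.65 for Klf2, 0.61 for Jdp2, 0.48 for Zfp36l2, 0.40 for Mcl1, 0.39 for Tgfb1, 0.34 for Elk3, 0.23 for Mef2d, -0.36 for Atf2, -0.28 for Braf, -0.25 for Mapk8 and -0.19 for Itch. The difference of time effects was 4.32 for Dusp5, 3.53 for Egr1, 3.10 for Egr2, 2.18 for Mmp9, 1.69 for Spry4, 1.495 for the cytokine gene Il1b, 0.82 for Srf, 0.53 for Atf4, 0.42 for Map2k4, 0.31 for Map2k2, -0.45 for Mkl2 and -0.39 for Atf2. None of these values passed the edgeR test.

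**Figure D5:**
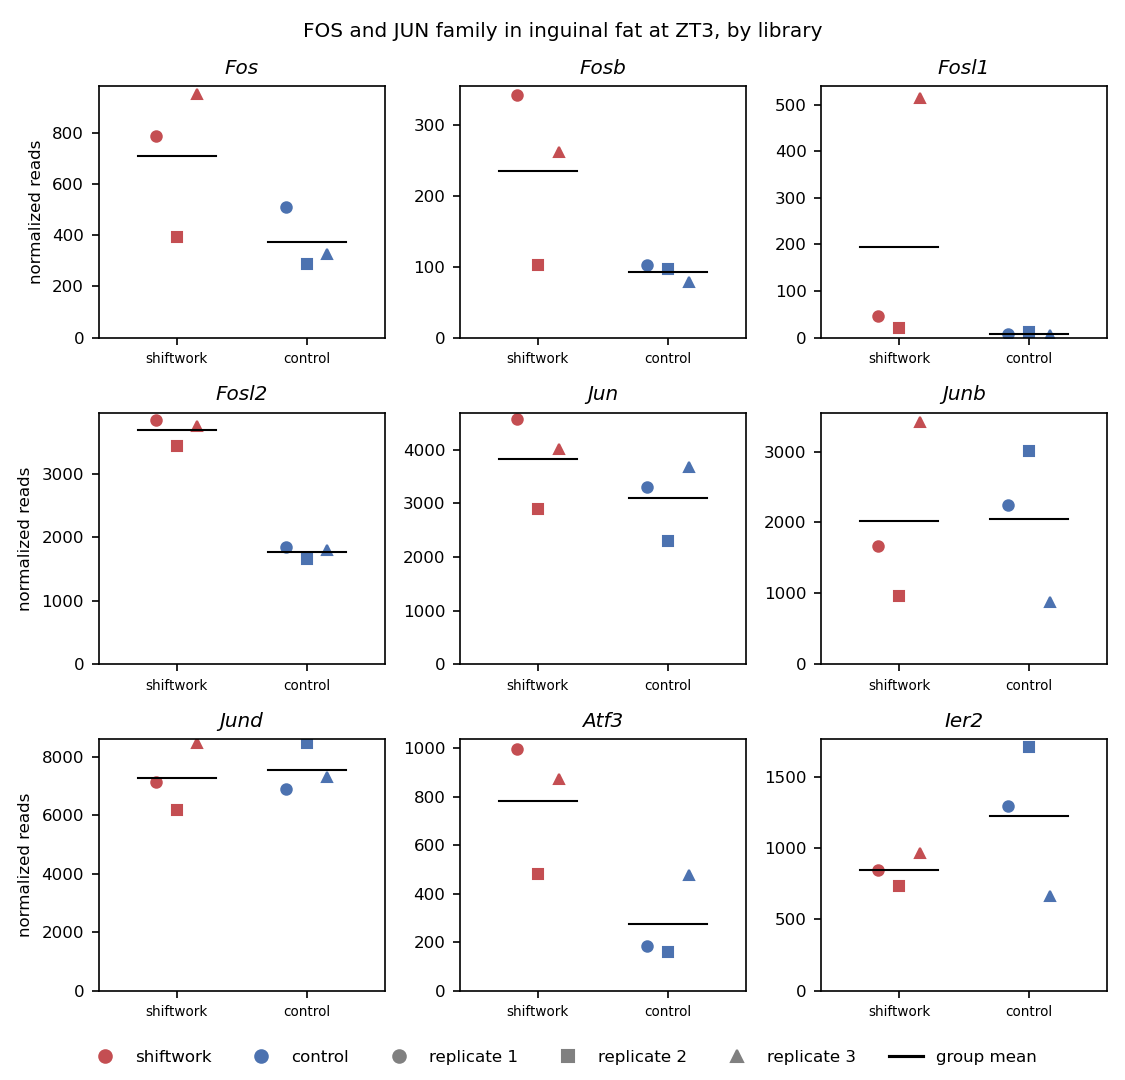
Level of each member in the 6 inguinal fat libraries at ZT3, in the authors' normalized reads, by group (colour) and replicate (marker shape), with the group mean as a line. Fosl2 was at 3446 to 3854 in shiftwork and 1653 to 1842 in control.

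Inguinal fat at ZT3 gave another picture of the FOS genes. Fosl2 had 3854, 3446 and 3756 normalized reads in shiftwork, against 1842, 1653 and 1799 in control, averaging 3685 ± 213 and 1765 ± 98.7 (SD, n = 3 each). The groups were far apart relative to their spread, and the log2 fold change was 1.06 ± 0.13. Summed skeletal muscle markers also did not overlap, at 43150, 684 and 133 CPM in shiftwork against 111, 50.3 and 51.0 CPM in control. Unlike Fosl2, these sums spread widely within shiftwork, and the lowest was near the highest control. All 8 genes had log2 fold changes above 0, but Myh1, Myh2 and Mylpf overlapped between the groups in CPM. Smooth muscle markers summed to 1619, 668 and 688 CPM in shiftwork against 614, 423.5 and 275 CPM in control, and these sums did not overlap. In shiftwork replicate 1, the library with 43150 CPM of skeletal muscle markers, 1229 CPM of the sum was Des. Each smooth muscle gene taken alone overlapped between the groups. The part of the muscle markers in Fosl2 was not tested. Its unadjusted p was 0.000141, but the adjusted p was 0.659 (limma, 16866 genes), since no gene was called (background 0 percent; 1144 genes had an unadjusted p under 0.05). edgeR on the recovered reads also called no gene (adjusted p = 0.487 for Fosl2), whereas DESeq2 on the same reads called 445 genes, Fosl2 among them at 8.11e-10. In the authors' deposited table, Fosl2 had a log2 fold change of 1.05 and an adjusted p of 1.87e-07, the third smallest p, and 426 of 29819 genes with a p were under 0.05.

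Atf3 had 995, 481 and 873 normalized reads in iWAT shiftwork, against 185, 158 and 476 in control. The lowest shiftwork library lay just above the highest control library. The log2 fold change was 1.63 ± 0.49 (adjusted p = 0.659, limma). Control replicate 3 held the highest Atf3 of the controls and few B cell transcripts. Leaving it out called Atf3 (adjusted p = 0.0434) and Fosl2 (0.0281, both limma) among 676 genes, 36 higher and 640 lower in shiftwork. The controls then kept, replicates 1 and 2, held 1313 and 1968 CPM of summed B cell markers, and the part of these cells was not tested.

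Fosb had 342, 103 and 261 normalized reads in shiftwork, against 103, 96.7 and 78.4 in control, and its lowest shiftwork library was level with the highest control. In RPKM that shiftwork library, at 0.4996, was below the highest control, at 0.570, so the groups overlapped on that scale. Fosl1 had 46.1, 19.6 and 514 normalized reads in shiftwork, against 7.25, 11.7 and 4.61 in control (37, 17 and 437 reads in shiftwork against 14, 11 and 4 in control). The mean rested on shiftwork replicate 3: the log2 fold change was 3.25 ± 1.19 with it and 1.90 without it, neither called by limma. Groups of replicates separated upward for Fosb, Fosl1, Fosl2 and Atf3, and for 7.41 percent of all genes, while 5.58 percent of genes separated downward and no member did.

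Shiftwork replicate 3 of iWAT also held the most fibroblast markers (18190 CPM summed over 7 genes, against 4570 and 5982 CPM in the other shiftwork libraries and 3336 to 7814 CPM in the controls) and macrophage markers (3898 CPM, against 1249 to 2379 CPM in the other 5). Their part in Fosl1 was not tested.

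Fos had 791, 392 and 951 normalized reads in iWAT shiftwork, against 511, 286 and 326 in control, which overlapped (log2 fold change 0.87 ± 0.40, adjusted p = 0.659, limma). Jun had 4577, 2888 and 4018 in shiftwork, against 3311, 2304 and 3667 in control, with overlap and a log2 fold change of 0.31 ± 0.26. Junb had 1671, 961 and 3424 in shiftwork, against 2249, 3010 and 877 in control. Ier2 had 847, 737 and 963 in shiftwork, against 1295, 1710 and 665 in control. Both genes overlapped between groups and spread widely among controls. In both genes the 2 higher controls were replicates 1 and 2, the libraries with 1313 and 1968 CPM of B cell markers, against 26.1 CPM in replicate 3, and the part of these cells was not tested. Jund, at 7132, 6197 and 8470 in shiftwork against 6905, 8487 and 7293 in control, had a log2 fold change of -0.06 ± 0.18.

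Around these members in iWAT, limma called none of the listed genes. The genes with the smallest p in their lists were Ctgf, at 620, 897 and 946 normalized reads in shiftwork against 379, 241 and 274 in control, and Maff (log2 fold change 1.06 ± 0.34) among the immediate early genes. Jdp2, a repressor that pairs with JUN proteins, had 981, 823 and 1212 in shiftwork against 641, 680 and 705 in control, without overlap. Among AP-1 targets they were Ccl2, at 736, 546 and 3582 in shiftwork against 266, 268 and 138 in control, and Lox, which encodes a collagen cross-linking enzyme, at 8517, 8251 and 11350 in shiftwork against 6469, 2869 and 5212 in control. In the remaining lists the log2 fold changes were 0.78 for Spry1, 0.56 for Map2k3, 0.52 for Spred1, 0.43 for Hras, 0.33 for Atf4, 0.29 for Mkl2 and -0.53 for Creb1.

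Shiftwork and control fat at ZT3 can be read side by side in the depots only as differences within each table. The log2 fold change was -1.48 in eWAT and 1.06 in iWAT for Fosl2, -1.94 and 0.87 for Fos, -1.67 and 1.18 for Fosb, -2.36 and 3.25 for Fosl1, and -0.27 and 1.63 for Atf3. For Jun it was 0.52 and 0.31, and for Ier2 it was -1.62 and -0.43. None of these passed the main test in either depot, and the difference between depots was not tested because the tables were normalized separately.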

How the data were processed

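The 9 members and all gene lists were chosen with earlier results of these data known. Members were named in every comparison. Of each pathway list the genes past the test were named, or the 2 with the smallest p where none passed, except 1 result that is not reported here. The 5 genes most correlated with Jun and with Fos were named. For eWAT the authors deposited whole-number read counts and log2(FPKM + 0.1) values, from which FPKM was taken back. For iWAT the authors deposited reads divided by a size factor (a normalized signal), RPKM and their own comparison with log2 fold changes, p-values and adjusted p-values. Whole reads were recovered for 100 percent of 310956 iWAT values (tolerance 0.001). Per the submitters' processing notes, the builds were mm10 and GRCm38, and the tools edgeR, limma, DESeq2, HTSeq and STAR, with neither versions nor roles.

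eWAT counts were tested with edgeR 4.0.16 (quasi-likelihood, robust, TMM, low-count filter at 10 reads) over all 12 libraries. Since iWAT values are not counts, limma 3.58.1 (trend, robust) was run on log2(value + 1) for genes with a mean of at least 10, so fold changes of low genes are understated. DESeq2 1.42.0 was an alternative, and edgeR on the recovered iWAT reads called 0 genes. Alternatives also covered normalization, filters, pseudocount, unit, groups in the fit, the replicate number as a block and each library left out. Calls used a Benjamini-Hochberg adjusted p under 0.05, and both tests were tested on simulated data first. CPM in eWAT are scaled to assigned reads and TMM factors, and marker CPM in iWAT to assigned reads alone. The CPM floors of 3 reads use assigned reads alone in both depots and cover counting error only. Replicates within groups differed by more than sampling noise (smallest chi-square per gene 19.2 over 18 pairs). R 4.3.3 and matplotlib 3.10.9 were used.

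Replicate numbers are shared by all groups. Deviations of same-numbered libraries from their group means correlated at 0.31, 0.132 and 0.203 between shiftwork ZT12 and control ZT12. The highest correlations with another number were -0.045, 0.124 and -0.083. A pairing was therefore only possible, it is not stated by the labels, and the block was run as an alternative. With the replicate block in those 2 groups 0 genes were called, as without it, and no member's call changed there (Jun log2 fold change -0.35, adjusted p = 0.566, edgeR).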

Additional observations from a re-analysis of the deposited data

Results flagged for a closer look

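Fosl2 moved in opposite directions in the 2 depots at ZT3. The log2 fold change of shiftwork against control was -1.476 in eWAT, where each shiftwork library was below each control library, and 1.062 in iWAT, where each shiftwork library was above each control library. The difference between depots was not tested, since the tables were normalized separately, and Fosl2 passed the main test in neither depot (adjusted p = 0.193, edgeR, and 0.659, limma).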

How the results depend on the processing

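Directions of the members were mostly kept: 861 recomputed member values kept their direction and their side of the threshold, 18 gained and 16 lost a call, and 23 changed sign, all of uncalled values. Under DESeq2 the numbers of genes called were 629 at ZT3 (4 members), 7 at ZT12, 2168 in control over time (1170 higher and 998 lower; 4 members), 287 in shiftwork over time and 189 for the difference of time effects (2 members, Jun and Ier2), and on recovered iWAT reads, chosen after seeing the data, 445 (2 members, Fosl2 and Fosl1). In control over time 320 genes (1 member, Jun) were called with no low-count filter, 1 member with only the 2 groups in the fit, and 298 genes (1 member, Jun) with the replicate block. By the labels, same-numbered libraries share only a number (correlations from -0.242 to 0.31 over all 15 pairs, 5 over 0.1). Ier2 (log2 fold change -1.47, adjusted p = 0.0984, edgeR) was the one member call that the block ended. Without the 3 ZT3 libraries that held male tract or spermatid markers, 9 genes were called at ZT3, 75 in shiftwork over time and 7 for the difference of time effects, and 4 members in control over time (Jun higher; Fosb, Fosl2 and Ier2 lower). That fit kept 1 control ZT3 library, replicate 2, which had the highest Fosb of the eWAT libraries (18.9 CPM). How that group varies cannot be read from 1 library, so every comparison with control ZT3 there gives sizes only. In control over time the log2 fold changes were 0.91 for Jun, -3.01 for Fosb, -1.05 for Fosl2 and -1.78 for Ier2. In the same fit Jund turned to 0.064 at ZT3 and 0.18 in control over time, and the difference of time effects of Atf3 to 0.60. Leaving out single libraries gave 0 to 403 genes and 0 to 2 members at ZT3, where the 403 came without control ZT3 replicate 2 and the 2 members, Fosl2 and Ier2, without control ZT3 replicate 1. It gave 1 to 2744 genes and 0 to 3 members in control over time, with 1, 4 and 3 genes and no member without control ZT12 replicate 1, control ZT12 replicate 2 and control ZT3 replicate 3, and 1208 and 2744 genes without control ZT3 replicate 2 and shiftwork ZT3 replicate 3. It gave 0 to 186 genes for the difference of time effects and 0 to 676 genes and 0 to 2 members in iWAT, with 186 without control ZT3 replicate 2 and 676 without iWAT control replicate 3. Log2 fold changes that changed sign ran, at ZT12, from -0.67 to 0.34 (Atf3), -0.15 to 0.88 (Fos), -0.026 to 0.187 (Fosl2), -0.027 to 0.485 (Junb) and -0.031 to 0.214 (Jund). In control over time they ran from -1.47 to 0.011 (Fos) and -0.16 to 0.087 (Jund), in shiftwork over time from -0.16 to 0.03 (Jun), and in iWAT from -0.56 to 0.40 (Junb) and -0.18 to 0.045 (Jund). The difference of time effects of Atf3 ran from -0.41 to 0.61. The cause was not tested. Of the members, Fosl1 is limited by depth, with 5 to 159 reads in eWAT.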
